A study of Mus musculus with 6 samples.

Results

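The klotho family and the receptors for fibroblast growth factors (FGFs) were described in lung RNA of *Zpbp2* KO and WT mice. The 8 genes were *Klb*, *Lctl* and *Kl* (the klotho family), *Fgfr1*, *Fgfr2*, *Fgfr3* and *Fgfr4* (the receptors) and *Fgf21* (a hormone that needs *Klb*). They were found by gene symbol, each on 1 row, among the 41388 genes of the count table. The set was chosen by name, with its values in KO against WT known from these libraries, so their difference between genotypes is described and no p-value is given for it.

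The study asked how a deletion at *Zpbp2*, next to the asthma-linked gene *Ormdl3*, affects the lung and the circadian clock. WT mice were C57BL/6J and were born in the colony that also held the mutants. KO mice carried the B6.129S7-Zpbp2tmZuk/Mmjax allele, which removes the start of *Zpbp2* (its first exons and part of its promoter), and were kept on a C57BL/6J background. Both groups were adult, lived under a light and dark cycle and were untreated, and all lungs were taken at Zeitgeber time 7 (ZT7), counted in hours from lights on; exact ages are not given in the sources used here. Each genotype had 3 libraries (WT1 to WT3 and KO1 to KO3), from 3 mice per genotype by the study's methods, with no pooling of animals stated.

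FGFs signal through receptor tyrosine kinases. Most FGFs act near the cell that makes them and bind the receptor together with heparan sulfate, whereas the endocrine FGFs bind heparan sulfate weakly and need a klotho protein beside the receptor. α-Klotho (*Kl*) is the co-receptor of FGF23 and is best known from kidney, and β-Klotho (*Klb*) is the co-receptor of FGF21 and FGF15 and is best known from adipose tissue and liver. In lung, the receptors are known for branching of the airways and for the upkeep of the alveolar epithelium.

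Total counts ranged from 59134950 to 71354388 per library, so that 3 counts, treated here as the floor of detection, corresponded to 0.041 to 0.0514 CPM (read counts scaled to the size of the library). The library labels were checked on *Zpbp2*, with 20, 15 and 7 counts in the WT libraries against 1, 0 and 0 in KO. *Sftpc*, the surfactant gene that marks alveolar type 2 cells, stood at 12100 to 12500 CPM in WT and 18200 to 19600 CPM in KO, so all 6 libraries were rich in lung RNA. KO2 and KO3 were close to copies of each other: over genes with 2000 to 20000 counts their variance was 1.93 times that of counting alone, against 8.88 to 12.2 times for pairs of WT libraries and 22 times for KO1 and KO2. At 20 to 200 counts the pairs were less far apart, at 1.71 for KO2 and KO3 and 1.85 for WT1 and WT2. The KO2 and KO3 pair therefore entered as 1 sample, with n = 3 for WT and n = 2 for KO in every mean ± SD. Kept separate, the 6 libraries gave 3402 called genes in place of 426. Libraries WT3 and KO1 stood apart through transcripts of squamous epithelium, whose 16 markers summed to 4959 CPM in WT3 and 9454 CPM in KO1 and to between 45.33 and 68.21 CPM in the other libraries.

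Of the 8 genes, 7 had enough counts to enter the edgeR quasi-likelihood test, and *Fgf21* did not. In that fit 2 of the 7, *Klb* and *Lctl*, both lower in KO, passed an adjusted p of 0.05, beside 2.28% of the 18660 genes tested (0.906% lower and 1.38% higher). These calls were lost with a length and GC offset and without WT1, WT2, WT3 or KO1, that is in 5 of 16 alternatives for *Klb* and 5 of 17 for *Lctl*. Without KO1 the KO group is 1 sample, KO2 and KO3 summed, and is assumed to vary like WT. Nothing is read from these calls, because the genes were chosen on the same contrast. All KO libraries lay below all WT libraries for *Klb* and *Lctl* and above them for *Fgfr2* and *Fgfr3*. Such a separation was common in these libraries, since 20.7% of tested genes had every KO library below every WT library and 20.1% had the reverse, 40.8% in all.

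**Figure D1:**
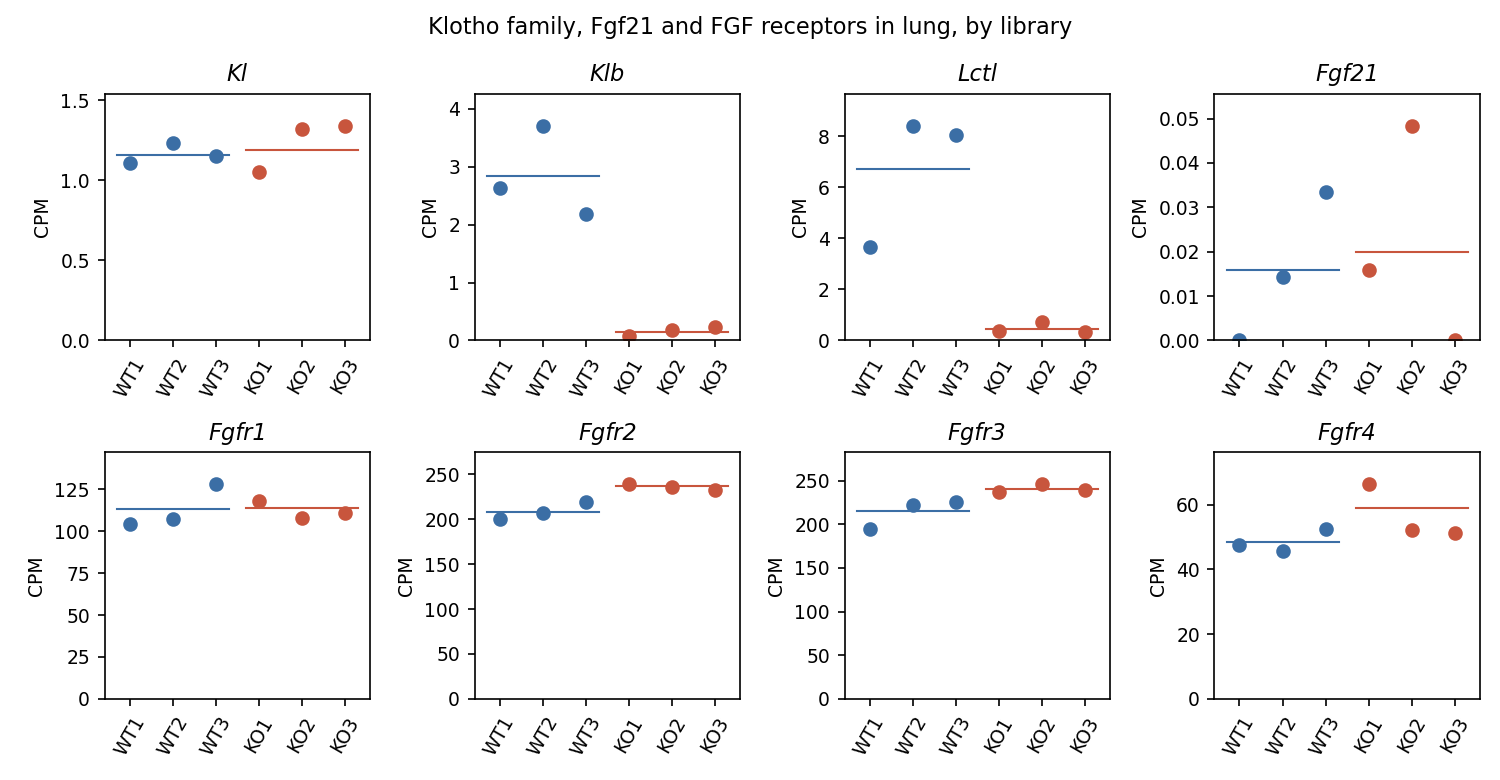
CPM of each klotho family gene, *Fgf21* and each FGF receptor in the 3 WT (blue) and 3 KO (red) libraries, with lines at the genotype means, where KO2 and KO3 count as 1 sample. *Klb* and *Lctl* were far lower in every KO library, the other klotho gene and the receptors lay at similar levels in both genotypes, and *Fgf21* was at the floor.

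*Klb* encodes β-Klotho, the membrane protein that lets FGF21 and FGF15 act through FGF receptors. It lies on chr5:65348314-65384007 (GRCm38, plus strand). Its reads numbered 193, 260 and 131 in WT1, WT2 and WT3, against 5, 11 and 13 in KO1, KO2 and KO3. As CPM these were 2.64, 3.71 and 2.19 in WT and 0.0795, 0.177 and 0.223 in KO. Every KO library was above the floor, but none came near the lowest WT library. WT averaged 2.84 ± 0.781 CPM (SD, n = 3) while KO averaged 0.14 ± 0.0852 CPM (SD, n = 2). The log2 fold change was -4.27 (SE 0.51), or 19.4-fold lower in KO. This was the 12th lowest estimate among all genes tested, whose median was 0.02. The estimate stayed between -4.44 and -3.83 in all 16 alternative analyses that gave one. KO1, the lowest library, moved it the most, to -3.83 when left out.

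*Lctl* (lactase-like, also called γ-Klotho) encodes a membrane protein of the same glycosidase-like family and is known from the lens of the eye. It lies on chr9:64117147-64138118 (plus strand). Reads numbered 268, 591 and 484 in WT against 23, 45 and 19 in KO, that is 3.66, 8.42 and 8.07 CPM in WT and 0.366, 0.726 and 0.326 CPM in KO. WT1 was lower than the other WT libraries, and it was still above every KO library. *Lctl* averaged 6.72 ± 2.65 CPM in WT and 0.446 ± 0.113 CPM in KO. The log2 fold change was -3.88 (SE 0.49), or 14.7-fold lower in KO, and its range over 17 alternatives was -4.27 to -3.5. It was the gene of the family on which KO2 and KO3 differed most, with a squared deviation of 9.05 times the counting variance against 0.31 for *Klb*. Part of *Lctl*, 254 exon bases or 9.75% of its exons, overlaps *Zwilch* on the opposite strand, and whether counting used the strand is not given in the sources used here. *Zwilch* itself had 2.92 ± 0.35 CPM in WT and 2.51 ± 0.331 CPM in KO and did not pass the test (log2 fold change -0.21, adjusted p = 0.503).

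*Kl* encodes α-Klotho, the co-receptor of the bone hormone FGF23. It lies on the same chromosome as *Klb*, at chr5:150952607-150993817 (plus strand). WT libraries held 81, 86 and 69 *Kl* reads and KO libraries 66, 82 and 78. In CPM, WT ran from 1.11 to 1.23 and KO from 1.05 to 1.34, so the WT range lay inside the KO range. The means were 1.16 ± 0.0601 CPM in WT and 1.19 ± 0.198 CPM in KO, with a log2 fold change of 0.04 (SE 0.19). Its coefficient of variation in WT was 5.18%, compared with 27.5% for *Klb* and 39.5% for *Lctl*. Thus the klotho gene with the fewest counts in WT varied least between WT libraries.

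*Fgf21*, the hormone that acts through β-Klotho, was at the floor in both genotypes, with 0, 1 and 2 reads in WT libraries against 1, 3 and 0 in KO. A difference in *Fgf21* was not detectable at this depth and no fold is given. It lies on chr7:45613886-45615490 (minus strand). The other endocrine ligands were also low: *Fgf15* had 0 counts in all 6 libraries, and *Fgf23* had 0, 0 and 1 reads in WT libraries against 2, 1 and 6 in KO, of which the last was above the floor.

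The bases just upstream of the klotho genes are shown because *Klb* and *Lctl* were low together and *Kl* was not. They come from RefSeq (GRCm38.p6), which held 7 of the 8 genes with 8 start sites, and each is given 5′ to 3′ on the plus strand up to the first start annotated by either RefSeq or GENCODE, which for *Lctl* is the RefSeq gene start at chr9:64117123. The stretches are chr5:65348161-65348313 for *Klb*, chr9:64116897-64117122 for *Lctl* and chr5:150952357-150952606 for *Kl*. Capitals mark matches to the letters searched on both strands: the nuclear receptor half-site AGGTCA, its direct repeat AGGTCANAGGTCA (bound by PPAR and RXR pairs), the E-box CACGTG, the TATA box TATAAA, the CCAAT box and the GC box GGGCGG. The repeat contains the half-site, so these motifs overlap.
Klb: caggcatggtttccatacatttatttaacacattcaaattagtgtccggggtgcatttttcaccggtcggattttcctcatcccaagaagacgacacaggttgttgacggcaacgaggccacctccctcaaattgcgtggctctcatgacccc
Lctl: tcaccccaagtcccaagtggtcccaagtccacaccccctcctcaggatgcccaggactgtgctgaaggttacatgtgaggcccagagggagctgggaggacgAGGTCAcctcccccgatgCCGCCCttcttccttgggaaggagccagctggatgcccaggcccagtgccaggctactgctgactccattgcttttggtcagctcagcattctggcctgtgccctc
Kl: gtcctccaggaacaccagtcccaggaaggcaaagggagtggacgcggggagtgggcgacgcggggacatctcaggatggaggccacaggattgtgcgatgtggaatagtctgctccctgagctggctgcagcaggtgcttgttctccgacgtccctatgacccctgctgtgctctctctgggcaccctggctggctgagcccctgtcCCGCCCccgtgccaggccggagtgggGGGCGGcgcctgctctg
The motifs were searched in the 250 bases before the start that the RefSeq promoter windows use, which is chr9:64117147 for *Lctl* and chr5:65348411 for *Klb*, and distances are counted from there. In this window *Klb* had 0 matches to these motifs. *Lctl* had a half-site, 148 bases before the start, and a GC box on the minus strand 130 bases before it. *Kl* had 2 GC boxes, 43 and 17 bases before the start. Over 32851 mouse windows of the same length, 14% held the half-site, 0.0335% the direct repeat, 6.02% the E-box, 12.4% the TATA box, 33.8% the CCAAT box and 32.7% the GC box. The window of *Fgf21* held an E-box 50 bases and a TATA box 28 bases before its start, and GC boxes 225, 121 and 45 bases before it. Base composition differed as well, with 48.0% G and C and 9 CG pairs for *Klb*, 60% and 3 for *Lctl* and 66.8% and 13 for *Kl*, beside medians of 52.4% and 6 over all windows. Because *Klb* had 0 matches, no motif searched could be shared by *Klb* and *Lctl*, and nothing is read from this.

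*Klb* and *Lctl* were low in the libraries that also held fewer adipocyte transcripts. All 24 genes of a white adipocyte list, which included the adipokine gene *Adipoq* and the lipid droplet gene *Plin1*, were lower in every KO library than in every WT library. Of these, 8 passed the test in edgeR, all lower, and the median log2 fold change was -1.87 beside 0.02 over all genes. Summed over the list, WT libraries had 1987 to 2750 CPM and KO libraries 730.9 to 752.5 CPM, and no marker was at 0. *Adipoq* was at 73.4, 99.2 and 69.4 CPM in WT and 6.28, 17.8 and 21.7 CPM in KO (log2 fold change -2.62, adjusted p = 0.0656), and *Plin1* at 54.3, 80.8 and 50.1 CPM in WT and 3.74, 10.2 and 8.4 CPM in KO (log2 fold change -3.22, adjusted p = 0.0496). *Car3*, *Fabp4* and *Cfd* had the highest CPM in WT of the list, with log2 fold changes of -1.61, -2.5 and -1.41 that did not pass the test. In bulk lung, fewer cells of a type and less RNA per cell cannot be told apart. The part of adipocyte RNA in the values of *Klb* and *Lctl* was not tested.

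The ratios of *Klb* and *Lctl* to these genes are given as values only, and they do not settle what adipocyte RNA contributes. Per 1000 CPM of the white adipocyte sum there were 1.33, 1.35 and 1.09 CPM of *Klb* in WT and 0.109, 0.24 and 0.296 CPM in KO. Taking each of the 24 genes in turn, the KO ratios of *Klb* lay below the WT ratios for all 24, with margins that differed widely. Per 1000 CPM of *Cfd*, an adipocyte serine protease, there were 10.8, 11.2 and 11.3 CPM of *Klb* in WT and 1.74, 1.21 and 1.53 CPM in KO. Per 1000 CPM of *Pck1*, the adipocyte and liver enzyme that makes glycerol precursors and fell from 107 ± 19.3 to 7.21 ± 3.43 CPM (adjusted p = 0.0446), there were 23.6, 30.1 and 25.6 CPM in WT and 16.6, 18.2 and 23.3 CPM in KO, so the genotypes almost touched. For *Lctl*, the ratio to the list sum was 1.84, 3.06 and 4.04 in WT and 0.5, 0.982 and 0.433 in KO. Its KO ratios lay below the WT ratios for 18 of the 24 genes and overlapped them for 6 (*Adipoq*, *Lep*, *Plin1*, *Aqp7*, *Pck1* and *Acvr1c*). The ratio of *Lctl* to *Klb* overlapped as well, at 1.39, 2.27 and 3.69 in WT and 4.6, 4.09 and 1.46 in KO.

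**Figure D2:**
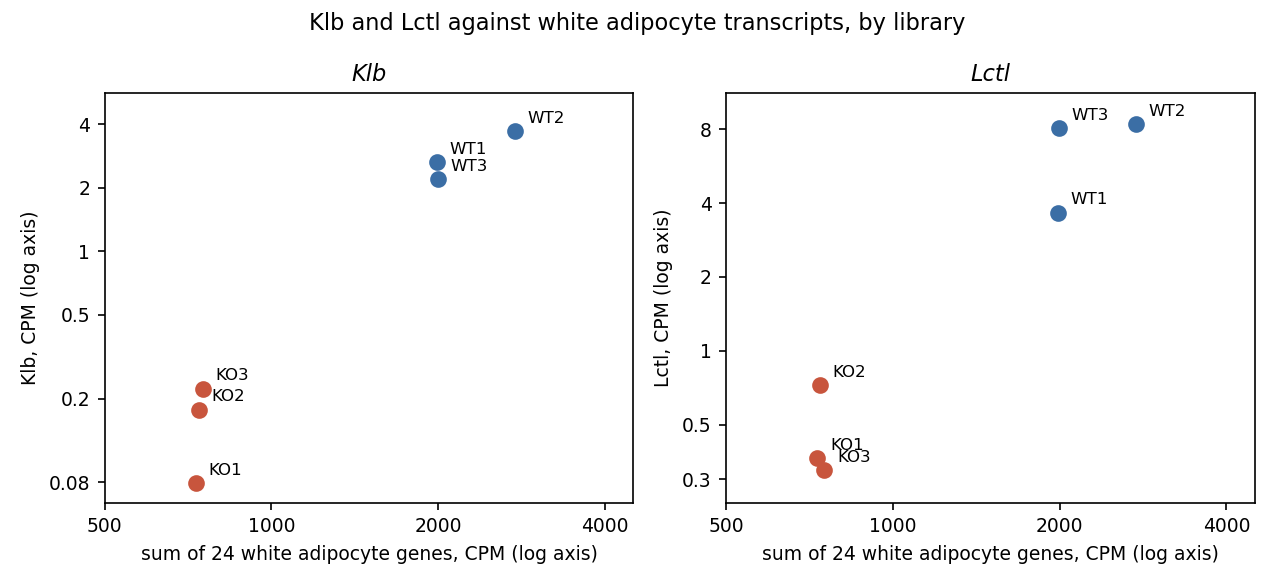
*Klb* (left) and *Lctl* (right) in CPM against the summed CPM of 24 white adipocyte genes, both on log axes, with 1 point per library (WT blue, KO red). KO libraries lie between 730.9 and 752.5 CPM of adipocyte genes and below 1 CPM of either klotho gene, and WT libraries lie above 1987 CPM and above 2 CPM.

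Other tissues near the lung differed between libraries too. The 13 brown adipocyte genes had a median log2 fold change of -2.36, 12 of them lower, with 0 passing the test in edgeR and 8 with an unadjusted p up to 0.05, a level that 27.3% of all genes tested reached. Their sum was 114.7 to 313.8 CPM in WT and 80.59 to 86.9 CPM in KO, and *Ucp1*, the uncoupling protein that defines brown fat, was at 49.5, 132 and 6.27 CPM in WT and 0.0954, 0.0968 and 0.137 CPM in KO. *Lhx8*, another brown fat marker, was at the floor in KO. Per 1000 CPM of the brown list, *Klb* was at 13.8, 11.8 and 19.1 in WT and 0.986, 2.04 and 2.72 in KO. Per 1000 CPM of *Ucp1* alone its order turned, with 53.3, 28.0 and 348 in WT and 833, 1830 and 1620 in KO. These KO values rest on 6, 6 and 8 *Ucp1* reads in KO1, KO2 and KO3. Among the WT libraries *Klb* had the order WT2, WT1, WT3, as did *Ucp1*, and *Lctl* was lowest in WT1. White adipocyte genes differed in this order. *Adipoq*, *Plin1*, *Fabp4* and *Cfd* had the order of *Klb*. The sum of the white adipocyte list did not, at 1987, 2750 and 1997 CPM in WT1, WT2 and WT3. Nor did *Car3*, its gene with the highest CPM, at 359, 486 and 401 CPM. Of 16 cardiomyocyte genes 15 were lower in KO, with 0 passing, 11 with an unadjusted p up to 0.05 and a sum of 2904 to 7671 CPM in WT and 1424 to 1937 CPM in KO. *Bmp10*, a gene of the atrium, had 0 counts in every KO library and 2578, 0 and 532 counts in WT, so WT2 lacked it too. Hepatocyte markers summed to 5.672 to 7.186 CPM in WT and 8.904 to 55.15 CPM in KO. None of 10 hepatocyte genes tested passed, and 6 had an unadjusted p up to 0.05. The part of these tissues in the members' values was not tested. Without WT3 and KO1, the libraries with squamous transcripts, which leaves 1 KO sample, the log2 fold change of *Klb* was -3.98 and that of *Lctl* -3.5.

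The receptors carry the FGF signal across the membrane, and all 4 were well above the floor. On GRCm38 they lie at chr8:25513654-25575718 (*Fgfr1*, plus strand), chr7:130162451-133123350 (*Fgfr2*, minus strand), chr5:33721674-33737068 (*Fgfr3*, plus strand) and chr13:55152640-55168759 (*Fgfr4*, plus strand). The span of *Fgfr2* is that of its GENCODE M21 model. It reaches far upstream of the RefSeq promoter window of *Fgfr2*, at chr7:130266809-130267058. Some of their exon bases overlap another annotated gene, 13.9% for *Fgfr3* (*G630022F23Rik*, opposite strand), 3.04% for *Fgfr2* (*Ctbp2*, same strand) and 1.66% for *Fgfr1* (*Gm16159*, opposite strand), and counts there are uncertain. *Fgfr2*, whose epithelial form receives FGF7 and FGF10 in lung, had 200, 207 and 219 CPM in WT and 239, 236 and 233 CPM in KO. *Fgfr3*, best known from growing cartilage, had 195, 222 and 226 CPM in WT and 237, 246 and 239 CPM in KO. For both, every KO library was above every WT library, by a small margin. The means of *Fgfr2* were 208 ± 9.47 and 237 ± 3.32 CPM, a log2 fold change of 0.19 (SE 0.06), or 1.14-fold higher in KO. Those of *Fgfr3* were 215 ± 16.8 and 240 ± 4.35 CPM, a log2 fold change of 0.16 (SE 0.08), or 1.12-fold higher. Both estimates stayed above 0 under all 17 alternatives, from 0.14 to 0.37 for *Fgfr2* and from 0.1 to 0.22 for *Fgfr3*.

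*Fgfr4*, the partner of β-Klotho in liver, had 47.6, 45.6 and 52.6 CPM in WT and 66.3, 52.1 and 51.1 CPM in KO. KO1 stood above the other KO libraries, which lay inside the WT range. Its means were 48.6 ± 3.63 and 59 ± 10.4 CPM, a log2 fold change of 0.28 (SE 0.12), which fell to 0.09 without KO1. *Fgfr1*, the partner of β-Klotho in fat, had 104, 107 and 128 CPM in WT and 118, 108 and 111 CPM in KO, so the genotypes overlapped fully. With means of 113 ± 12.8 and 114 ± 6.26 CPM its log2 fold change was 0.02 (SE 0.1), and the estimate took both signs over the alternatives, from -0.04 to 0.14. *Fgfr1* therefore showed no direction, while *Klb* in the same libraries was 19.4-fold lower.

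*Fgfr2* and *Fgfr3* were higher in libraries that also had more alveolar type 2 transcripts. All 10 markers of these cells were higher in KO by estimate and 4 passed the test, with a median log2 fold change of 0.36 and a summed level of 22200 to 23220 CPM in WT and 31480 to 33230 CPM in KO. *Sftpc*, *Sftpb* and *Sftpa1*, which had the highest CPM, had log2 fold changes of 0.62, 0.49 and 0.43, each with an adjusted p of 0.0446 in edgeR. Among 10 lung fibroblast markers the median was -0.05 and 1 passed, lower in KO, with sums of 5024 to 5643 CPM in WT and 4667 to 5620 CPM in KO, and among 8 capillary endothelium markers the median was 0.18, with 0 passing and 4 with an unadjusted p up to 0.05. The 6 erythroid genes, a sign of blood left in the tissue, were all higher by estimate (median 1.74, 0 passing, 2 with an unadjusted p up to 0.05), and summed to 2402 to 5523 CPM in WT and 3973 to 19740 CPM in KO. The part of these cells in the receptor values was not tested.

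Levels of different genes were compared per kilobase of exon (RPKM, CPM per 1000 exon bases). In WT the order was *Fgfr3* (30.0 ± 2.35 RPKM), *Fgfr2* (20.2 ± 0.917), *Fgfr4* (13.7 ± 1.03), *Fgfr1* (11.4 ± 1.3), *Lctl* (2.58 ± 1.02), *Klb* (0.625 ± 0.172), *Kl* (0.124 ± 0.00645) and *Fgf21* at the floor. Neighbours in this order did not overlap in their WT range, except *Fgfr4* and *Fgfr1*, and *Fgfr4* was above *Fgfr1* in each of the 6 libraries. That pair also changed places with the length used: with the longest transcript of each gene in place of all exons, *Fgfr1* came to 22.4 RPKM and *Fgfr4* to 14.6 RPKM. With that length *Fgfr2* also came close to *Fgfr3*, at 47.1 and 50.5 RPKM. In KO the receptors kept this order, *Lctl* averaged 0.171 RPKM, and *Kl*, at 0.128 RPKM, came above *Klb*, at 0.0307 RPKM. In KO3 *Kl* was also above *Lctl*, at 0.143 and 0.125 RPKM.

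**Figure D3:**
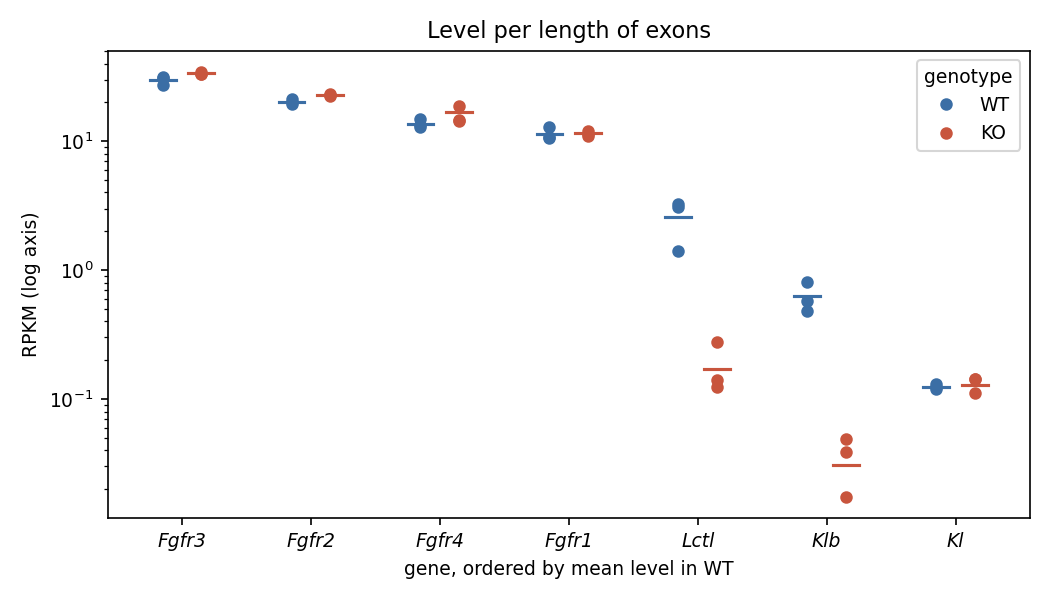
Level per kilobase of exon (RPKM, log axis) of the 7 genes above the floor, ordered by their WT mean, with a point per library and a line at each genotype mean (WT blue, KO red). The receptors lie above 10 RPKM in every library, *Lctl* and *Klb* are lower in KO, and *Kl* lies near 0.1 RPKM in both genotypes.

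The make-up of the klotho family therefore differed between the genotypes and that of the receptors hardly did. Of the summed RPKM of the 3 klotho genes, *Lctl* made up 76.0% ± 8.53, *Klb* 20% ± 7.3 and *Kl* 4.04% ± 1.39 in WT. In KO1, KO2 and KO3, *Lctl* made up 51.9%, 60.7% and 39.4%, *Kl* 41.6%, 30.9% and 45.2% and *Klb* 6.46%, 8.49% and 15.4%. With the longest transcript as length, the mean share in KO was 46.5% for *Kl* and 44.9% for *Lctl*, which turns their order. The sum itself was 3.33 ± 1.09 RPKM in WT and 0.329 ± 0.0834 RPKM in KO. Of the summed RPKM of the 4 receptors, *Fgfr3* made up 39.8% in WT and 39.6% in KO, *Fgfr2* 26.8% and 27.1%, *Fgfr4* 18.2% and 19.6%, and *Fgfr1* 15.2% and 13.6%. These shares depend on the length used: with the longest transcript they were 37.5% and 37.6% for *Fgfr3*, 35% and 35.6% for *Fgfr2*, 10.9% and 11.8% for *Fgfr4* and 16.6% and 15% for *Fgfr1*. Their sum was 75.3 ± 4.97 RPKM in WT and 84.6 ± 3.29 RPKM in KO, so that receptor RNA exceeded klotho RNA per length in both genotypes.

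The genes most like *Klb* and *Lctl* were sought by Pearson's r of log2 CPM over the 6 libraries, among 15150 genes with a mean of 1 CPM or more. This is a description only, because the libraries fall into the genotypes that chose the genes and KO2 and KO3 are near copies. For *Klb* the highest were *Irf4*, a transcription factor of lymphocytes that adipocytes also use (r = 0.999), *Gltscr1l* (0.998), *Slc25a32* (0.997), *Hdlbp* (0.997) and *St8sia4* (0.997). For *Lctl* they were *Luzp1* (0.999), *Fat3* (0.997), *E430025E21Rik* (0.996), *Rfx7* (0.996) and *Setd2* (0.996). Such likeness was frequent, with 1458 genes (9.62%) at r of 0.9 or more with *Klb* and 1188 genes (7.84%) with *Lctl*. These leading genes differed far less between the genotypes than *Klb* and *Lctl* did, with log2 fold changes between -0.58 and -0.21. The 24 white adipocyte genes had a median r of 0.97 with *Klb* (0.75 to 0.99) and of 0.94 with *Lctl* (0.75 to 0.98).

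The rest of the pathway was described from 10 gene groups, 93 genes in the table, of which 79 were tested. By estimate 34 were higher and 45 lower in KO, with a median log2 fold change of -0.08 beside 0.02 over all genes. In edgeR 3 passed the test, *Ppara* lower and *Sdc1* and *Sdc4* higher, and 30 had an unadjusted p up to 0.05. Over all genes tested, 2.28% passed and 27.3% had an unadjusted p up to 0.05.

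*Ppara*, the nuclear receptor that induces *Fgf21* in fasted liver, fell from 9.16 ± 1.51 CPM in WT to 3.66 ± 0.0938 CPM in KO. Its libraries were at 8.92, 10.8 and 7.79 CPM in WT and 3.59, 3.85 and 3.6 CPM in KO, with no overlap. The log2 fold change was -1.32 (SE 0.17, adjusted p = 0.0446), and the adjusted p ranged from 3.95e-10 to 0.189 over 17 alternatives, past the threshold in 12. It did not pass with a length and GC offset, without any 1 of the WT libraries or without KO1, while its log2 fold change stayed between -1.43 and -1.19 over all 17. The adipocyte lists given above were also lower in KO (24 of 24 white and 12 of 13 brown genes by estimate), with medians of -1.87 and -2.36, and their part in *Ppara*, *Pparg* and *Ppargc1a* was not tested. In this group of 6 genes, 5 had an unadjusted p up to 0.05. The other genes did not pass: *Pparg*, the adipocyte receptor, was at 21.0 ± 7.12 CPM in WT and 11.4 ± 1.92 CPM in KO (adjusted p = 0.149), *Atf4*, the stress factor that also induces *Fgf21*, at 209 ± 6.4 and 267 ± 19.1 CPM (adjusted p = 0.0537), *Ppargc1a*, a coactivator of the PPARs, at 15 ± 2.61 and 9.32 ± 0.795 CPM (adjusted p = 0.0897), *Creb3l3*, a liver transcription factor, at 0.112 ± 0.0645 and 0.41 ± 0.175 CPM (adjusted p = 0.126), and *Slc2a1*, the glucose transporter, at 37.0 ± 1.72 and 39.8 ± 7.48 CPM (adjusted p = 0.616).

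*Sdc1* and *Sdc4* encode syndecans, cell surface carriers of the heparan sulfate that FGFs bind. *Sdc1* rose from 200 ± 9.22 to 262 ± 6.9 CPM (log2 fold change 0.39, SE 0.06, adjusted p = 0.0487) and *Sdc4* from 178 ± 3.48 to 228 ± 2.88 CPM (0.36, SE 0.05, adjusted p = 0.0448). Both calls were lost when libraries were scaled by their total alone, and the adjusted p ranged from 1.2e-08 to 0.558 for *Sdc1*, past the threshold in 8 of 17 alternatives, and from 1.69e-16 to 0.597 for *Sdc4*, past it in 10 of 17. With a length and GC offset, without any 1 of the WT libraries or without KO1 neither passed. The log2 fold changes stayed between 0.34 and 0.42 for *Sdc1* and between 0.31 and 0.38 for *Sdc4*. They were the 2 called among 18 receptor partners and carriers, whose median was -0.12. *Gpc3*, a glypican and the most abundant of them per length, was at 210 ± 10.4 CPM in WT and 253 ± 34.9 CPM in KO (adjusted p = 0.175). All 10 alveolar type 2 markers given above were also higher in KO by estimate, with a median log2 fold change of 0.36. The part of these cells in *Sdc1* and *Sdc4* was not tested.

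The paracrine ligands showed no call. Of 15 such genes 9 were tested, with a median of -0.08, 0 passing and 1 with an unadjusted p up to 0.05. *Fgf1*, the ligand with the highest level per length, was at 302 ± 16.6 CPM in WT and 301 ± 27.3 CPM in KO (adjusted p = 0.995). Next per length came *Fgf18*, a ligand of alveolar growth, at 9.32 ± 0.592 and 8.54 ± 0.81 CPM (adjusted p = 0.557). *Fgf7* and *Fgf10*, the mesenchymal ligands of *Fgfr2*, were chosen for this role after their values were seen: they were at 21.7 ± 1.07 and 20.4 ± 2.45 CPM and at 15.8 ± 1.23 and 15 ± 0.843 CPM. These 4 ligands overlapped between the genotypes. *Fgf2*, also named after its values were seen, did not, at 5.07, 5.4 and 5.34 CPM in WT and 3.42, 4.37 and 4.01 CPM in KO, and it did not pass the test (adjusted p = 0.12).

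The 4 intracellular FGF homologous factors, which bind sodium channels and are not secreted, were all lower by estimate (median -1.16), with 0 passing and 1 with an unadjusted p up to 0.05. *Fgf12*, known from heart and nerve, was at 13.4, 7.67 and 5.35 CPM in WT and 2.31, 2.71 and 2.14 CPM in KO (adjusted p = 0.0737). *Fgf11* was at 16.0 ± 0.617 and 15.6 ± 1.04 CPM (adjusted p = 0.842). The cardiomyocyte markers given above were also lower in KO, and their part in *Fgf12* was not tested.

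Genes downstream of the receptors gave 0 calls. Among 19 signal transducers the median was 0.05, with 11 with an unadjusted p up to 0.05. The largest estimate in either direction was that of *Cbl*, named after its values were seen. It was at 43.6 ± 2.92 CPM in WT and 21.2 ± 5.57 CPM in KO (log2 fold change -1.03, adjusted p = 0.0532). *Mapk3* (ERK1), the most abundant per length, was at 319 ± 13.4 CPM in WT and 406 ± 29.8 CPM in KO (adjusted p = 0.0636), and *Plcg1*, a phospholipase that binds the receptors, at 265 ± 7.64 and 277 ± 23.5 CPM (adjusted p = 0.613). Among 12 feedback inhibitors and target genes the median was 0.03, with 3 with an unadjusted p up to 0.05. *Spry1*, an inhibitor of the receptor signal, was at 112 ± 9.73 and 132 ± 12.2 CPM (adjusted p = 0.208), and *Dusp6*, the phosphatase of ERK, at 80.4 ± 7.15 and 90.5 ± 25.5 CPM (adjusted p = 0.594). *Dusp6* reached 108 CPM in KO1 and 72.2 and 72.7 CPM in KO2 and KO3.

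Of the 13 genes of bile acids, phosphate and vitamin D linked to FGF15 and FGF23, 4 were at the floor in both genotypes and 7 had enough counts to be tested, with 0 passing and 1 with an unadjusted p up to 0.05. *Cyp7a1*, the rate-limiting enzyme of bile acid synthesis, and *Slc10a2*, the ileal bile acid transporter, had 0 counts in all 6 libraries. *Fabp6* and *Nr1h4*, the bile acid genes with the highest level per length, averaged under 1 CPM in both genotypes, with adjusted p = 0.677 and 0.321. The rank of *Fabp6* rests on WT3, with 0, 1 and 40 reads in WT1, WT2 and WT3. In KO1, KO2 and KO3 it had 74, 5 and 2 reads, and WT3 and KO1 are the libraries with squamous transcripts. *Slc34a2*, the phosphate transporter of alveolar type 2 cells, was abundant, at 1820 ± 66.7 CPM in WT and 1970 ± 58.3 CPM in KO (adjusted p = 0.269), and *Vdr*, the vitamin D receptor, was at 13.7 ± 0.779 and 15.5 ± 0.0108 CPM (adjusted p = 0.231). *Adam10* and *Adam17*, proteases known to shed α-Klotho, were at 112 ± 1.7 and 94.2 ± 1.03 CPM (adjusted p = 0.0579) and at 80.3 ± 4.16 and 71.8 ± 3.46 CPM (adjusted p = 0.183). *Gba3*, a glycosidase of the same family, was not analysed here.

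**Figure D4:**
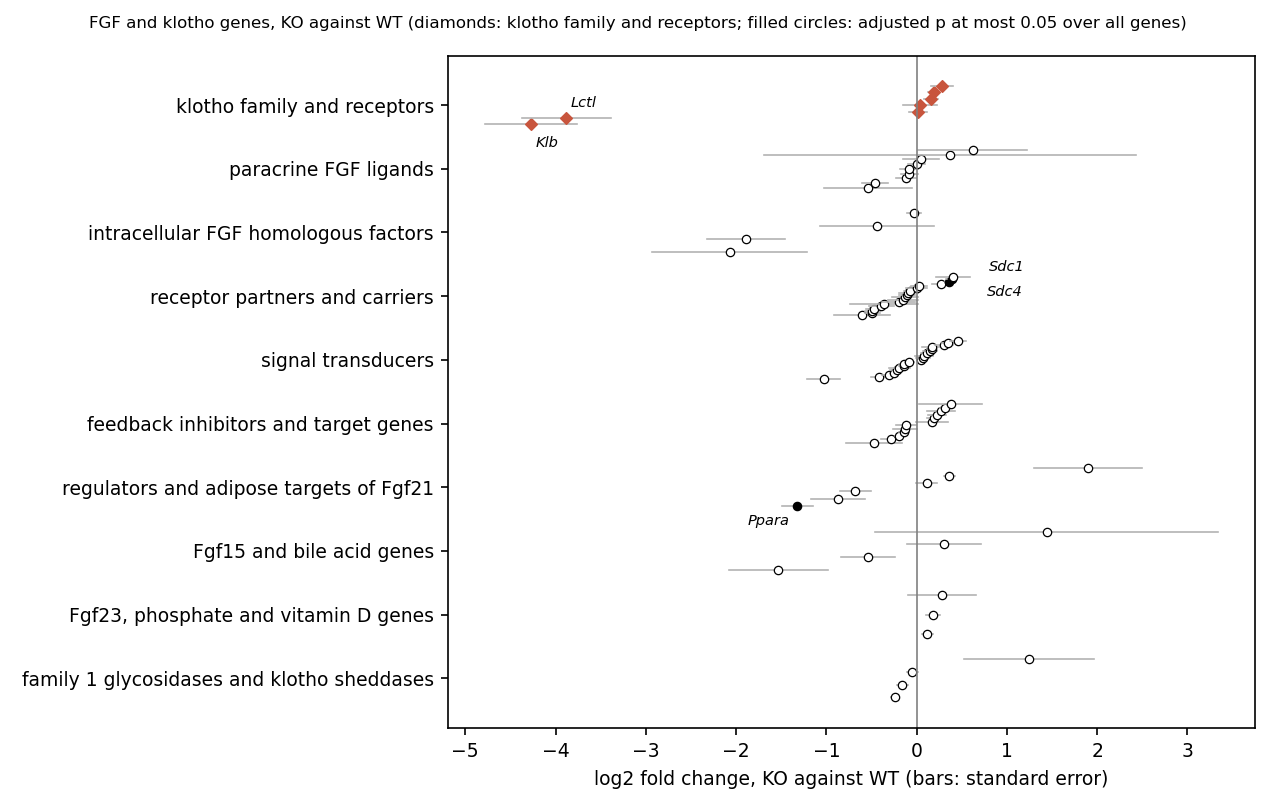
Log2 fold change, KO against WT, of the 7 tested klotho and receptor genes (diamonds, shown with no test) and of the tested genes of the FGF and klotho pathway by group (circles, filled at an adjusted p of at most 0.05), with bars of 1 SE. *Klb* at -4.27 and *Lctl* at -3.88 lie far to the left, and *Ppara*, *Sdc1* and *Sdc4* are the filled circles.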

How the data were processed

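The deposited table holds raw counts per gene. Per the submitters' processing notes and the study's methods, the authors trimmed reads with Trimmomatic 0.36, aligned them to GRCm38 with STAR 2.5.3a, used Picard 2.9.0 and counted reads with HTSeq 0.6.0. The annotation release, the read length and the strand setting are not given in the sources used here. The members and all gene lists were chosen with earlier results of these data known.

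All 6 library columns were used. The model was fitted to counts in edgeR 4.0.16 under R 4.3.3 (filterByExpr, TMM, glmQLFit, glmQLFTest, two-sided), with Benjamini-Hochberg adjustment over the 18660 genes tested and a threshold of 0.05. KO2 and KO3 were summed as 1 sample, leaving 3 WT against 2 KO samples. The study's methods give 3 mice per genotype, and nothing says why KO2 and KO3 are so alike, so p-values measure only the spread between these samples. CPM used TMM-scaled library sizes, RPKM the exon union of GENCODE M21 on GRCm38, and correlations log2 CPM with a pseudocount of 0.5. Floors cover counting error only.

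Named were the 8 members, *Zpbp2*, every called pathway gene and the 2 highest per group in WT RPKM, the 5 genes most like *Klb* and *Lctl*, and, of the markers, up to 3 with the highest CPM per list and those at the floor. Genes overlapping members, and *Adipoq*, *Plin1*, *Pck1*, *Lep*, *Aqp7*, *Acvr1c*, *Fgf2*, *Fgf7*, *Fgf10*, *Pparg*, *Ppargc1a*, *Creb3l3*, *Cbl*, *Fgf15*, *Fgf23*, *Cyp7a1* and *Slc10a2*, were added after their values were seen. Alternatives changed the scaling, filter, test, handling of KO2 and KO3, covariates and libraries (DESeq2 1.42.0 among the tests).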

Additional observations from a re-analysis of the deposited data

How the results depend on the processing

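Counts of called genes depended strongly on the processing, and the cause was not tested. The main analysis called 426 genes and 3 pathway genes. The counts were 937 and 10 with at least 10 counts in every library (a filter that leaves *Klb* without a value), 3919 and 25 with DESeq2, 3402 and 21 with the 6 libraries kept separate, 2161 and 18 with a squamous epithelium term, 2256 and 16 without WT3 and KO1 (chosen after seeing the data, with WT1 and WT2 against KO2 and KO3 summed, so that the lone KO sample is assumed to vary like WT), 209 and 2 with edgeR's exact test, and 0 and 0 with a length and GC offset (3469 and 26 with an unadjusted p up to 0.05). Leaving out 1 library gave 0 to 418 genes and 0 to 3 pathway genes: 0 and 0 without WT1, WT2 or WT3 (3642, 3346 and 4193 genes with an unadjusted p up to 0.05) and 17 and 0 without KO1, where KO is likewise 1 sample. Scaling by library size alone called 306 genes, 38.2% of them higher in KO, against 60.3% in the main analysis, and 2 pathway genes. The exact test had 30.1% higher.

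Replicate numbers did not pair the samples: deviations of same-numbered libraries correlated at -0.543, 0.691 and -0.756. With the replicate number as a block, 1157 genes and 13 pathway genes were called.

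*Klb* and *Lctl* stayed lower in KO, and *Fgfr2*, *Fgfr3* and *Fgfr4* higher by estimate, under every alternative that gave a value, while *Kl* and *Fgfr1* took both signs. The median log2 fold change of all genes lay between -0.04 and 0.05. Depth limits *Fgf21*, *Fgf15* and *Fgf23*, which were at or near the floor.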
